A study of Mus musculus with 2 samples.

Results

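The cells described here are splenic dendritic cells (DC) with many transcripts of Wdfy4 and few transcripts of ribosomal protein genes. They were chosen on measured values. A cell entered with at least 3 Wdfy4 UMIs (unique molecular identifiers, each standing for 1 captured transcript) and less than 8% of its UMIs from the 91 ribosomal protein genes. It was left out if it held 4 or more UMIs of Ccr7, Fscn1, Socs2 and Cacnb3 together (mature DC), 2 or more of Xcr1 and Clec9a (cDC1), 4 or more of Top2a, Mki67, Birc5 and Pclaf (cycling cells) or 5 or more of Siglech (plasmacytoid DC). The rule reads the mRNAs of ribosomal proteins, and ribosomal RNA itself was not analysed here. It took 3367 of 19339 cells, 1546 of the 7814 WT cells and 1821 of the 11525 cit/cit cells.

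The study compared splenic DC of naive H2-Aa cit/cit mice, homozygous for a chemically induced allele named citation and lacking H2-Aa, with those of WT (H2-Aa +/+) mice. Each genotype gave 1 library, made from 3 pooled female mice aged 4 months according to the labels (the study's methods give a younger age for its mice in general), and neither group received a treatment. CD11c+ cells were enriched, sorted as live CD45.2+ CD11c+ cells and captured with the 10x Chromium 3′ kit. The libraries held 51020804 UMIs in WT and 72652201 in cit/cit, with medians of 5492 and 5633 UMIs per cell. With 1 library per genotype there was no test of any difference, library and genotype cannot be told apart, and all intervals are 95% intervals that cover counting error only. The libraries shared 31 cell barcodes, of which 7 were among the WT cells and 4 among the cit/cit cells described.

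Conventional DC of the spleen fall into cDC1, which are specialised in cross-presentation to CD8 T cells, and cDC2, which carry SIRPα and mainly present peptides on MHC class II to CD4 T cells. WDFY4 is a large BEACH domain protein that cDC1 need for cross-presentation of cell-associated antigen. Messenger RNAs of ribosomal proteins are short, spliced and mostly cytoplasmic, whereas Malat1, Neat1 and Xist RNA remain in the nucleus, and unspliced transcripts of long genes consist mainly of intron. Whether the deposited counts include reads in introns is not given in the sources used here.

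Cells that passed every limit except the ribosomal one numbered 1666 in WT and 4211 in cit/cit. They are called cells above the ribosomal limit and serve as the comparison. Ribosomal shares in these Wdfy4-rich cells, taken on both sides of the limit, had 2 peaks. In WT the most cells lay at 2 to 3% (509 cells) and at 17 to 18% (153 cells), with a trough of 36 cells at 7 to 8%. In cit/cit the peaks lay at 3 to 4% (505 cells) and 17 to 18% (333 cells), with a trough of 74 cells at 8 to 9%. The limit of 8% thus fell in or beside the trough of each library.

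**Figure D1:**
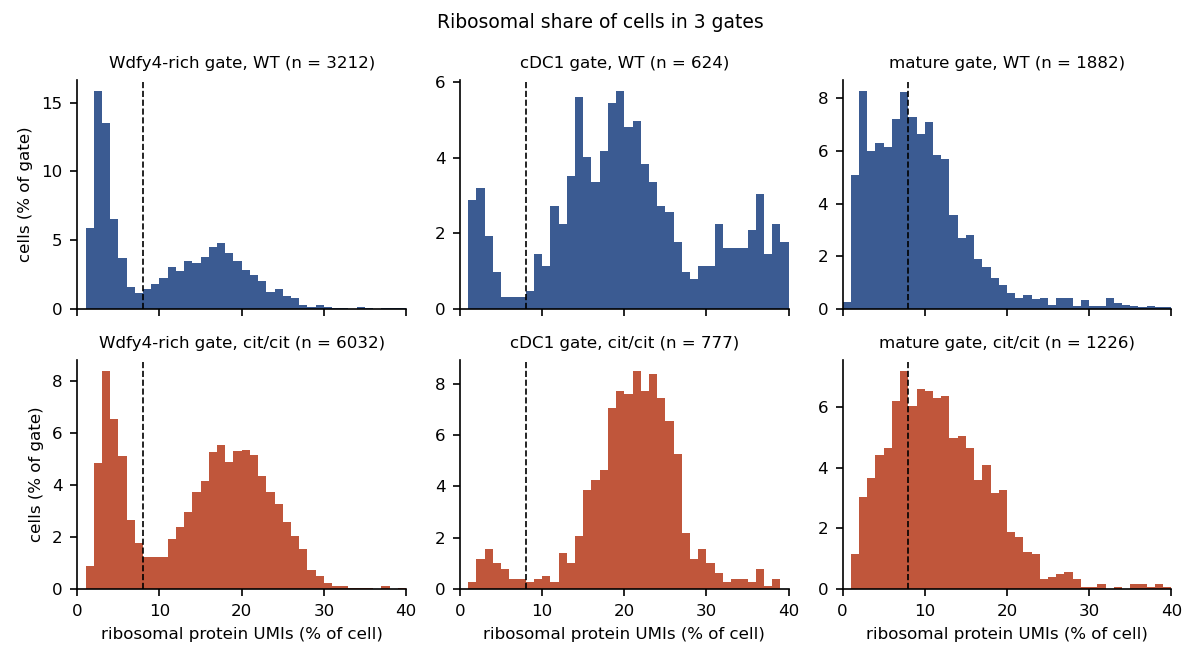
Histograms of the share of each cell's UMIs from ribosomal protein genes (x axis, %) against the share of cells of the gate (y axis, %), for Wdfy4-rich, cDC1 and mature cells of each library. The dashed line marks 8%. Wdfy4-rich cells show a low and a high peak in both libraries, cDC1 a small low peak, and mature cells no clear trough at the limit.

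Among Wdfy4-rich cells, 48.1% (46.4 to 49.9%) lay under the limit in WT and 30.2% (29.0 to 31.4%) in cit/cit. The difference was -17.9 percentage points (-20.0 to -15.9). As a share of all cells, the cells made up 19.8% (18.9 to 20.7%) of the WT library and 15.8% (15.1 to 16.5%) of the cit/cit library, a difference of -3.98 points (-5.10 to -2.88). Cells above the limit differed in the other direction, with 21.3% in WT and 36.5% in cit/cit, a difference of 15.2 points (13.9 to 16.5). The share under the limit was also lower in cit/cit among mature cells (47.6% and 30.3%), cDC1 (9.94% and 5.53%), cycling cells (23% and 17.1%) and the cells of no gate (32.4% and 28.1%). Among the few plasmacytoid DC the interval of the difference, -3.96 to 13.7 points, included 0. Over all cells the difference was -12.8 points (-14.2 to -11.5), so the lower share in cit/cit was not confined to Wdfy4-rich cells.

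The cells held less RNA than those above the limit. The median was 2983 UMIs in WT and 2331 in cit/cit, against 8208.5 and 7002 above the limit, and the median number of genes was 1615 and 1392 against 2988 and 2693. The median share of mitochondrial UMIs was 2.33% and 3.16%, against 1.50% and 1.58% above the limit, and 4 WT and 8 cit/cit cells exceeded 10%. Genes that span more than 100 kb gave a median of 37.4% of non-ribosomal UMIs in WT and 34.9% in cit/cit, against 22.3% and 21.4% above the limit. The interquartile ranges of this share did not overlap, being 35.1 to 39.4% and 32.4 to 37.1% under the limit and 18.9 to 25.3% and 18.0 to 24.6% above it. Across the Wdfy4-rich cells of a library the share from long genes and the ribosomal share had a Spearman's rho of -0.90 in WT (n = 3212 cells) and -0.91 in cit/cit (n = 6032 cells). Within the cells under the limit it was -0.44 (n = 1546) and -0.40 (n = 1821). These cells share a library and differ in depth, so the values are descriptive.

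Depth was lowest inside the range and not at the lowest ribosomal shares. In WT the median fell from 4580 UMIs in cells under 2% to 1942.5 at 4 to 6%, and it was 6941 at 8 to 10%. In cit/cit it was 4235 under 2%, 1612 at 6 to 8% and 5060.5 at 8 to 10%. Just inside the limit, at 7 to 8%, WT had 36 cells with a median of 5688 UMIs, and just outside, at 8 to 9%, 47 cells with 6341. In cit/cit the 106 cells just inside had a median of 1469.5 UMIs and the 74 just outside 4411.5. The edge therefore separated cells of like depth in WT and of unlike depth in cit/cit.

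Wdfy4 (chr14:32959547-33185508, minus strand, mm10), the gene of the rule, had a median of 9 UMIs per cell in WT and 6 in cit/cit. Exactly 3 UMIs, the minimum, were held by 135 WT cells (8.73%) and 277 cit/cit cells (15.2%). All levels below are counts per 1000000 UMIs outside ribosomal protein genes (CPM), from the UMIs summed over the cells. Wdfy4 reached 3180 CPM (3130 to 3231) in WT and 2996 (2945 to 3047) in cit/cit, against 1611 and 1513 above the limit. The minimum of 3 UMIs was the same at every depth and the cells under the limit were shallower. Their higher Wdfy4 level is therefore partly set by the rule. It was not the highest level among cells under the limit, since cDC1 there held 5559 (5311 to 5815) in WT and 3615 (3339 to 3909) in cit/cit.

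Gm15261 (chrX:169037674-169106536, minus strand), an antisense noncoding gene that lies wholly within the oppositely oriented Arhgap6, was at 711 CPM (687 to 735) in WT and 659 (636 to 684) in cit/cit. Above the limit it was at 149 (142 to 156) and 134 (130 to 139), and the log2 ratios were 2.25 (2.17 to 2.34) and 2.30 (2.23 to 2.37). Cells were then thinned to 1500 UMIs, which left out 72 WT and 193 cit/cit cells under the limit, 31 and 50 above it and 6 and 6 cDC1 that were shallower. Of the thinned cells, 43.4% (40.9 to 46.0%) of 1474 WT and 43.8% (41.4 to 46.2%) of 1628 cit/cit cells had a Gm15261 UMI, against 15.4% and 13.3% above the limit and 3.72% and 3.89% of cDC1 on either side of it. Among thinned cells under the limit, the share was 11.3% (4.66 to 21.9%) of 62 and 25.6% (13.5 to 41.2%) of 43 cDC1, and 21.3% and 27.3% of the cells of no gate. Before thinning the shares were 56.3% and 53.4%, at the median depths given above. Gm15261 was therefore detected in fewer than all cells at this depth. It was also higher under the limit in cells of no gate, at 284 (255 to 316) and 412 (379 to 447) CPM against 36.4 and 54.3 above it. Among cDC1 under the limit it was at 64.5 (40.4 to 97.7) in WT and 178 (121 to 253) in cit/cit. Arhgap6 had log2 ratios of 0.95 and 1.04 across the limit. As the sources used here do not say whether counting used strand, reads of Gm15261 and Arhgap6 cannot be told apart, nor can those of the other overlapping genes named below.

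Sirpa (chr2:129592835-129632228, plus strand), which encodes the cDC2 surface receptor SIRPα, was at 577 CPM (556 to 599) in WT and 487 (467 to 508) in cit/cit. Above the limit it was at 458 and 393, and under the limit in cDC1 at 99.7 (69.0 to 139) and 74.6 (39.7 to 128). The log2 ratios across the limit, 0.34 (0.27 to 0.40) and 0.31 (0.24 to 0.38), became -0.0047 and -0.035 when libraries were scaled by the median of gene ratios. In thinned cells, 52.2% (49.6 to 54.7%) and 47.5% (45.0 to 49.9%) had a Sirpa UMI, against 10.4% and 8.56% of cDC1, a type that should lack it. Before thinning these shares were 73.2% and 60.8%, against 24.4% and 29.0% of cDC1 at median depths of 10294.5 and 13181 UMIs.

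Cells on either side of the Wdfy4 minimum were set side by side. Among otherwise eligible cells, the 130 WT cells with 2 Wdfy4 UMIs had 511 CPM of Gm15261, those with 3 had 642 and those with 4 had 392. In cit/cit the 256 cells with 2 UMIs had 588, those with 3 had 677 and those with 4 had 671. Sirpa was at 781 and 764 CPM on the outer and inner side in WT and at 522 and 535 in cit/cit. Cells with no Wdfy4 UMI were lower in Gm15261, with 147 and 269 CPM, and their medians of 2166.5 and 1698 UMIs were near those of the cells with 3, at 2041 and 1839.

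Genes of DC identity were read in the cells under and above the limit, a contrast in which 2.49% of 4414 tested genes were 2-fold higher and 17.6% 2-fold lower in both libraries. Of 10 pan-DC genes, all with 50 or more CPM on a side of the limit, none was 2-fold higher under the limit in both libraries and 1, the cystatin Cst3, was 2-fold lower. Their median log2 ratio was -0.02 in WT and 0.04 in cit/cit, against 0.26 and 0.26 over all genes. Zbtb46, a transcription factor of classical DC, was at 536 and 554 CPM under the limit and at 306 and 336 above it. Flt3, the receptor for the DC growth factor FLT3L, was at 503 and 491 against 435 and 403. Itgax, which encodes CD11c, was at 319 and 317 against 347 and 329. The labelled DC identity was thus matched by these genes on both sides of the limit.

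Of 16 cDC2 identity genes, 9 reached the minimum level, none was 2-fold higher and 3 were 2-fold lower under the limit in both libraries, with medians of -0.17 and 0.10. The 3 were Cd209a, a C-type lectin (38.8 and 67.9 CPM under, 168 and 227 above), Ltb, a cytokine (173 and 204 under, 580 and 559 above), and Ffar2, a receptor for short-chain fatty acids (142 and 168 under, 360 and 383 above). Clec4a4, the lectin DCIR2 of ESAM-high cDC2, was at 159 and 151 under the limit and 116 and 105 above it. In thinned cells a Clec4a4 UMI was seen in 18.7% and 19.5% of cells under the limit, 12.6% and 11.8% above it and 1.46% and 0.519% of cDC1. A Cd209a UMI was seen in 4.27% and 7.92% of thinned cells under the limit and in 7.44% and 7.91% of cDC1, so its share is read as background. Of 11 ESAM-high genes, 6 reached the minimum level and 1 was 2-fold higher in both libraries, the adhesion molecule gene Dscam (3776 and 2756 CPM under, 1737 and 1211 above). Their medians were 0.29 and 0.43. Of 12 CLEC12A-high genes, 4 reached the minimum level and 2 were 2-fold lower, Cd209a and the lysozyme gene Lyz2, with list medians of -1.47 and -1.21. Mgl2 was at 0 in the WT cells, where 3 UMIs would be 0.619 CPM, and at 3.33 in cit/cit.

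Cd4, which many ESAM-high cDC2 carry, was seen in 16.5% and 18.0% of thinned cells under the limit, 14.1% and 13.3% above it and 2.43% and 2.59% of cDC1. Esam itself was seen in 3.12% and 1.90% of thinned cells under the limit and 1.29% and 0.13% of cDC1. Cx3cr1, a chemokine receptor gene of CLEC12A-high cDC2, was seen in 2.44% and 2.03%, against 4.85% and 2.20% of cDC1, and Ccr2 in 0.611% and 1.04%, against 8.58% and 12.1%. The last 2 genes thus lay at or below the share in cDC1. Before thinning the shares under the limit and in cDC1 were 28.5% and 25.4% against 9.46% and 11.5% for Cd4, and 4.79% and 3.68% against 13.9% and 12.7% for Cx3cr1.

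Genes of cDC1 not used by the rule were lower than in cDC1. Cadm1, an adhesion molecule, was at 61.7 CPM (54.9 to 69.1) in WT and 24.0 (19.7 to 29.0) in cit/cit, against 3419 and 884 in cDC1 under the same limit. Above the limit Cadm1 was at 30.3 and 19.2 CPM, and the log2 ratios across it were 1.03 (0.80 to 1.25) in WT and 0.32 (0.01 to 0.62) in cit/cit. Irf8, the transcription factor of cDC1 development, was at 35.5 (30.4 to 41.2) and 29.8 (24.9 to 35.2), against 1167 and 1119. Tlr3, a receptor for double-stranded RNA, was at 6.19 and 6.44, against 173 and 189. Of the 10 cDC1 genes 1, Ppt1, reached 50 CPM on a side of the limit in both libraries (0.43 and 0.39), and of the 10 mature DC genes 4 did, none of them past 2-fold in both libraries. Of the 10 plasmacytoid DC genes 3 were read in both libraries and 1, Bst2, was 2-fold lower. Of the 10 proliferation genes 1, Hmgb2, was read and was not past 2-fold in both libraries. The cDC1, mature, plasmacytoid and proliferation lists also hold the genes by which the rule left cells out on both sides. How many of their genes were read is therefore partly fixed by the rule.

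The differences of Wdfy4-rich cells from other classes were compared above and below the limit. Among genes that differed at least 2-fold between Wdfy4-rich cells and cDC1 above the limit, 652 of 653 in WT and 707 of 720 in cit/cit had the same sign below it. For mature cells the counts were 1133 of 1138 and 874 of 875, for cycling cells 480 of 489 and 291 of 292, and for plasmacytoid DC 799 of 864 and 601 of 619. Genes that define the gates were not left out, and their signs are set by the gates on both sides of the limit. The share with the same sign over all genes is not given here. The log2 ratios of Wdfy4-rich cells to cDC1 below and above the limit had a Pearson's r of 0.93 in WT (n = 3632 genes) and 0.88 in cit/cit (n = 3876), across genes of the same libraries, which are not independent replicates. For plasmacytoid DC r was lower, at 0.80 (n = 3750) and 0.85 (n = 3771).

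Markers of T, NK and B cells gave few UMIs, and those of macrophages gave more. The 7 T cell genes gave 6 UMIs in WT and 2 in cit/cit, with Cd3g, Trbc2 and Bcl11b at 0 in both, and the 7 NK cell genes gave 16 and 15, with Prf1 and Eomes at 0 in both. The 7 B cell genes gave 150 and 91 UMIs, led by Ebf1 in WT (66) and Cd79b in cit/cit (34), with Fcmr at 0 in both. The 7 plasma cell genes gave 306 and 243 UMIs, of which Ighm gave 252 and 231. The 12 monocyte and macrophage genes gave 2161 and 2003 UMIs, or 446 and 445 CPM. Adgre1, which encodes F4/80, gave 1721 and 1696 of them and was at 355 and 377 CPM under the limit and at 232 and 231 above it. The 9 neutrophil genes gave 354 UMIs in WT, 326 of them in 1 cell, and 1236 in cit/cit, 1095 of them in 1 cell. The 6 erythroid and platelet genes gave 301 and 165 UMIs, with 242 and 84 in 1 cell each. At least 2 UMIs of another cell type's list were held by 33.6% and 28.6% of the cells, against 49.9% and 46.8% above the limit, where depth was higher. Of these 520 WT and 521 cit/cit cells under the limit, 501 and 502 held 2 UMIs of the monocyte and macrophage list, which Adgre1 led. With Adgre1 not counted, a reading added after seeing the data, 1461 of 1546 and 1760 of 1821 cells held fewer than 2 UMIs of every such list. No doublet caller was run. Some values were also read without cells holding 2 UMIs of another cell type, as given in the last section.

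The expression of all genes was then compared between the cells under and above the limit, within each library. This is the contrast that the rule itself uses, so the values are a description. Of 4414 genes with 50 or more CPM on a side of the limit in both libraries, 110 (2.49%) were at least 2-fold higher and 777 (17.6%) at least 2-fold lower in both. Scaling by all UMIs, ribosomal ones included, moved the median of all genes by 0.27 in WT and 0.30 in cit/cit on the log2 scale and gave 353 higher and 582 lower. Scaling by the median of gene ratios moved it by -0.34 and -0.35 and gave 54 higher and 997 lower.

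The higher and lower genes differed in length, and the higher genes in kind. The 110 higher genes spanned a median of 85440 bases and 47.3% of them exceeded 100 kb. The 777 lower genes spanned a median of 7074 bases, 66.2% of them were under 10 kb and 97.7% were protein coding. All tested genes spanned a median of 41197 bases, with 20.8% over 100 kb, 15.8% under 10 kb and 96.9% protein coding. Of the higher genes 52, or 47.3%, were long noncoding genes, against 3.06% of all tested genes. At least 50% of the length of 42 higher genes (38.2%) lay opposite a longer tested gene, which held for 1.16% of the lower and 2.06% of all tested genes.

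Among the genes highest under the limit, each of the 12 overlapped a gene on the other strand. They were Gm15261, 9130019P16Rik, Gm4876, 4930595D18Rik, Gm10974, Atxn7l1os1, Tg, Slc26a10, Insyn2b, Rsf1os1, Lrrc18 and Gm20528. An overlap of any length counted here, which for Slc26a10 was 10.1% of the gene. The share of all tested genes with any such overlap is not given here. Lrrc18 lay wholly inside Wdfy4 and Insyn2b wholly inside Dock2. Lrrc18 was at 122 and 114 CPM under the limit and at 29.5 and 29.1 above it. Tg, the thyroglobulin gene, overlapped the adaptor gene Sla and was at 129 and 137 against 30.1 and 34.4. The 12 lowest were Ifitm3, Ifitm2, Mien1, Wdr83os, Naa38, Ndufs8, S100a10, Sec61b, Emc6, Ifi27l2a, Nme2 and Gapdh, none of which spanned 10 kb. Ifitm3, an interferon-induced membrane protein gene, was at 127 and 226 CPM under the limit and at 1020 and 1524 above it, with log2 ratios of -3.00 (-3.12 to -2.88) and -2.75 (-2.84 to -2.66). Gapdh, a glycolytic enzyme gene, was at 52.6 and 72.2 against 333 and 407.

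**Figure D2:**
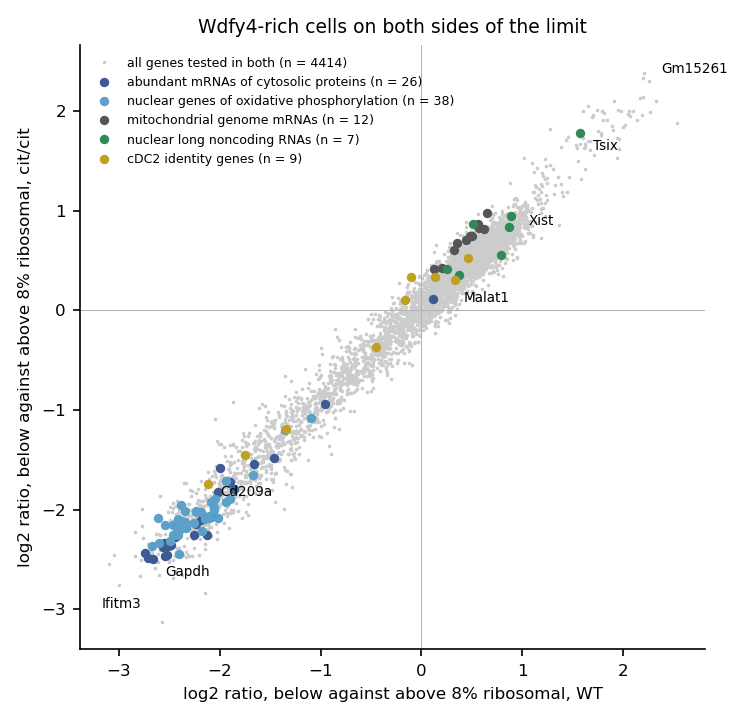
Each point is a gene, with its log2 ratio of cells under to cells above the ribosomal limit in WT (x axis) and cit/cit (y axis). Genes of cytosolic proteins and of oxidative phosphorylation lie at the lower left, mitochondrial genome mRNAs and nuclear noncoding RNAs at the upper right, and Gm15261 at 2.25 and 2.30.

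The span of a gene and its log2 ratio had a Spearman's rho of 0.81 in WT (n = 4581 genes) and 0.79 in cit/cit (n = 4602), across genes of 1 library each. Genes under 10 kb had a median log2 ratio of -1.77 in WT and -1.67 in cit/cit. The median was -0.34 and -0.32 at 10 to 30 kb, 0.42 and 0.42 at 30 to 100 kb, 0.69 and 0.65 at 100 to 300 kb and 0.87 and 0.78 over 300 kb. The same order of bins was seen in the other gates. In cDC1 the medians ran from -1.84 to 0.95 in WT and from -1.37 to 0.92 in cit/cit, and in mature cells over the narrower range of -0.77 to 0.36 and -0.86 to 0.39. The rise with span was thus not particular to Wdfy4-rich cells.

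**Figure D3:**
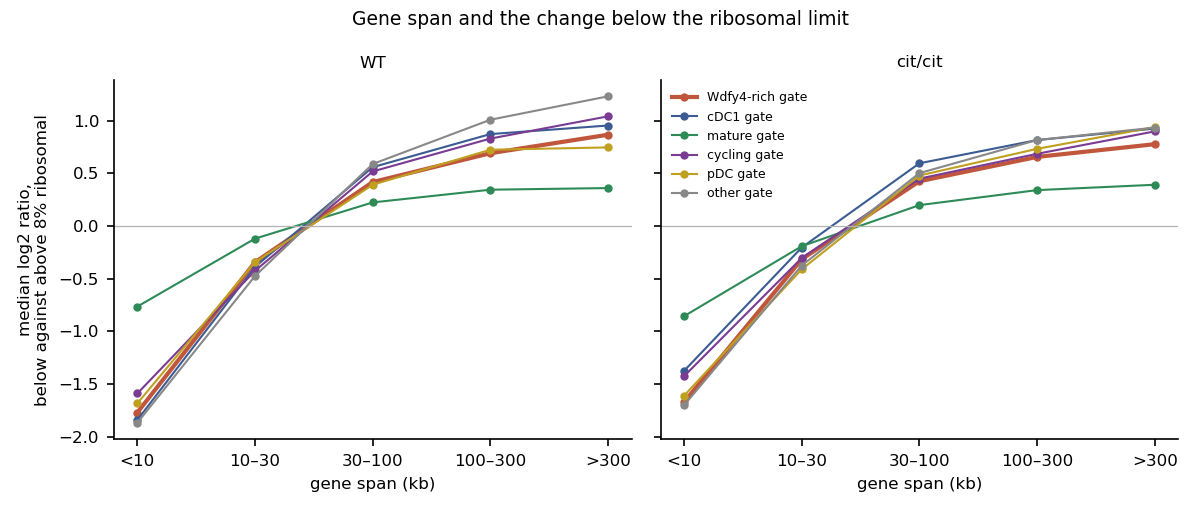
Median log2 ratio of cells under to cells above the ribosomal limit (y axis) for genes grouped by genomic span (x axis, kb), in each gate and library. In Wdfy4-rich cells (thick line) the medians rise from -1.77 to 0.87 in WT and from -1.67 to 0.78 in cit/cit, and every other gate rises too.

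The lists were read against the 2.49% of all tested genes that were 2-fold higher and the 17.6% that were 2-fold lower. A gene could meet the 50 CPM minimum on either side, so genes low under the limit could enter through the cells above it alone. Of 38 nuclear genes of oxidative phosphorylation read in both libraries, all 38 were at least 2-fold lower, with medians of -2.30 in WT and -2.09 in cit/cit. Of these, 23 reached 50 CPM under the limit in at least 1 library. The rest met the minimum above it alone, where they were higher, so the count of 38 is partly fixed by the minimum. Of 26 abundant mRNAs of cytosolic proteins 24 were lower, with medians of -2.25 and -2.16. Actb, which encodes β-actin, was at 1736 and 1757 CPM under the limit and at 8174 and 7778 above it. The 2 genes of this list not past 2-fold were Arpc2 (-0.96 and -0.94) and Cd2ap (0.11 and 0.11). Of 4 cytoplasmic noncoding RNAs and snoRNA hosts 3 were lower, with medians of -1.64 and -1.48, among them Gas5 at 86.0 and 118 against 381 and 526.

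Messenger RNAs of membrane and secreted proteins were lower by a smaller amount. Of 21 such mRNAs 11 were 2-fold lower in both libraries, with medians of -1.22 and -1.07. Cd52 was among them, with log2 ratios of -2.41 and -2.29, whereas Ptprc, which encodes CD45 and spans 112848 bases, was at 0.39 and 0.41. Of 9 MHC class II genes 6 were lower in both, with medians of -1.81 and -1.65, and Cd74, the invariant chain, was at 5720 and 5627 CPM under the limit and 20029 and 20428 above it. Of 15 MHC class I pathway genes 9 were lower, with medians of -1.24 and -1.11, but Nlrc5, a transactivator of MHC class I genes, was at 159 and 204 against 101 and 132. Of 17 ER chaperones and folding enzymes 11 were lower, with medians of -1.21 and -1.09. Of 13 interferon-stimulated genes 5 were lower (medians -0.91 and -1.26), of 18 immediate-early genes 3, a share near that of all genes (medians -0.74 and -0.62), and of 5 apoptosis and stress genes 2 (medians -0.11 and -0.52). Pmaip1, a BH3-only gene of the last list, was at 394 and 287 CPM under the limit and at 384 and 265 above it.

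Transcripts of the mitochondrial genome and nuclear noncoding RNAs were higher or little changed. All 12 mitochondrial mRNAs read in both libraries had log2 ratios above 0 and none was past 2-fold, with medians of 0.49 in WT and 0.75 in cit/cit. mt-Cytb, which had the largest ratio of them in both libraries, was at 2812 and 3456 CPM under the limit and at 1795 and 1758 above it. Of 7 nuclear long noncoding RNAs 1, Tsix, was 2-fold higher in both libraries, and the medians were 0.79 and 0.83. Tsix overlaps Xist on the other strand and was at 315 and 316 CPM against 106 and 92.1. Xist, the RNA that silences an X chromosome, was at 2238 and 2502 against 1206 and 1299, with log2 ratios of 0.89 and 0.95. Malat1 was at 31706 and 32287 against 26543 and 24142, with log2 ratios of 0.26 and 0.42, of which the first became -0.084 when scaled by the median of gene ratios.

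Within the cells, these groups did not follow the ribosomal share in the same way. Summed cytosolic mRNAs rose at every bin, from 7505 CPM in WT cells under 2% to 24422 at 6 to 8%, and from 6755 to 20316 in cit/cit. Gm15261 fell from 889 to 329 CPM in WT over the same bins, and in cit/cit it was 692 under 2%, 740 at 2 to 4% and 404 at 6 to 8%. Mitochondrial mRNAs were highest inside the range, with 28540 CPM at 2 to 4% in WT and 37912 at 4 to 6% in cit/cit. B2m, the light chain of MHC class I, stepped from 628 at 4 to 6% to 1549 at 6 to 8% in WT, and from 816 at 6 to 8% to 1400 at 8 to 10% in cit/cit. Malat1 was highest at 6 to 8% in WT, with 38814, and under 2% in cit/cit, with 36231.

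**Figure D4:**
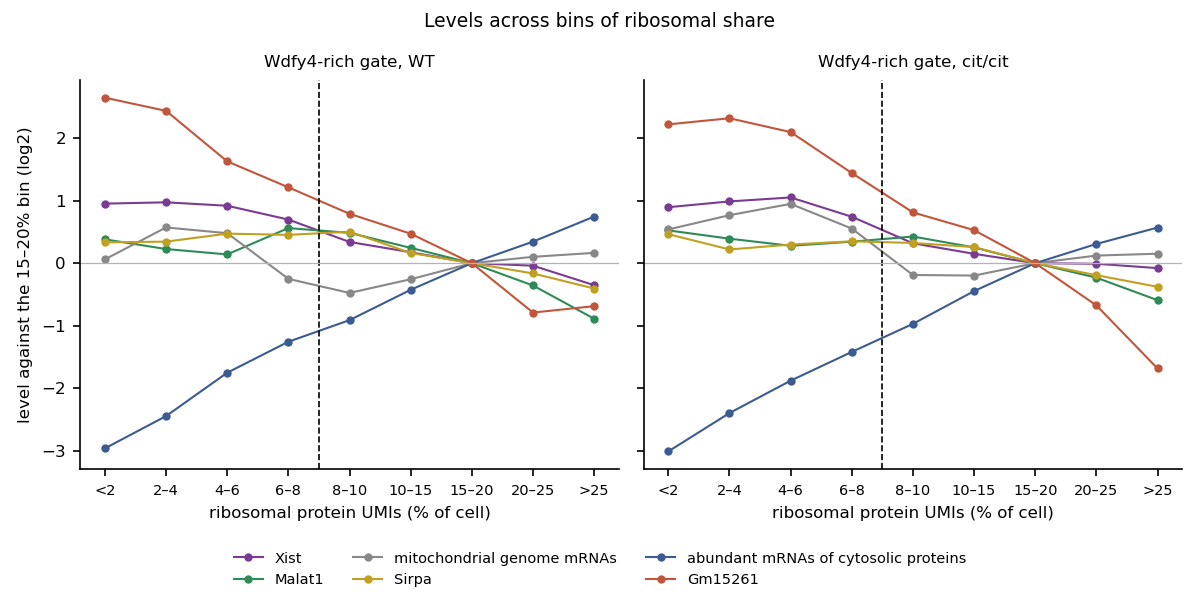
Levels of single genes and summed lists in Wdfy4-rich cells (y axis, log2 ratio to the 15 to 20% bin) across bins of ribosomal share (x axis, % of the cell's UMIs), for each library, with the limit as a dashed line. Cytosolic mRNAs rise at every bin and Gm15261 is lower at the high end than at the low end, with 692 and then 740 CPM in the first bins of cit/cit, while mitochondrial mRNAs peak at 2 to 4% in WT and at 4 to 6% in cit/cit.

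Of the 20 genes that the study listed as leading its Wdfy4-high cluster, 4 were at least 2-fold higher in both libraries, with medians of 0.998 and 0.95. The study chose this list on these samples, so its direction is not independent evidence. The 4 were Gm15261, Immp2l, Frmd5 and Chn2. The list's medians across the limit were 1.01 and 0.88 in cDC1, 1.13 and 0.90 in cycling cells and 1.25 and 1.19 in the cells of no gate. They were 0.67 and 0.95 in plasmacytoid DC, but -0.05 and 0.09 in mature cells. The rise of this list was thus not particular to Wdfy4-rich cells. Immp2l, a mitochondrial peptidase subunit gene of 931499 bases, was at 2961 and 2448 CPM under the limit and at 1317 and 1050 above it. Its log2 ratios of 1.17 and 1.22 lay 0.30 and 0.45 above the median of genes of its span, and those of Arhgap15, 0.88 and 0.87, lay 0.02 and 0.09 above it. Gm15261 lay 1.84 and 1.87 above the median of its span.

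The contrast across the limit was set beside that of the other gates. Of 61 genes 2-fold higher in Wdfy4-rich cells and read in cDC1 too, 48 (78.7%) were also 2-fold higher in cDC1, which was 28.4% of the 169 higher there. Of 740 lower genes 561 (75.8%) were also lower in cDC1, or 92.9% of the 604 lower there. In cDC1 as a whole 4.59% of tested genes were higher and 16.1% lower. The log2 ratios of both gates had a Pearson's r of 0.94 in WT (n = 3967 genes) and 0.89 in cit/cit (n = 4075), across genes of the same libraries. For mature cells r was 0.87 and 0.86, 4 of 55 higher genes (7.27%) and 197 of 565 lower genes (34.9%) were shared, and 0.412% of genes were higher and 5.69% lower. For plasmacytoid DC r was 0.76 and 0.80, and 27 of 53 higher genes (50.9%) and 569 of 719 lower genes (79.1%) were shared, where 4.13% of genes were higher and 18.3% lower. For cycling cells r was 0.92 and 0.93, 64 of 84 higher genes (76.2%) and 604 of 752 lower genes (80.3%) were shared, and 4.32% were higher and 16.6% lower. For the cells of no gate r was 0.95 and 0.97, 85 of 88 higher genes (96.6%) and 728 of 772 lower genes (94.3%) were shared, and 11% were higher and 20.5% lower. In 3 of 3744 genes the ratio exceeded that of cDC1 more than 2-fold in both libraries, and in 5 it was more than 2-fold below. These 5 were Ccl5, Pcna, Anp32e, S100a4 and Cd7, and the 3 were Etfb, Rex1bd and Txn1, all named after their values were seen. The 3 were lower under the limit in Wdfy4-rich cells too, as with Etfb at -2.17 and -2.01, and lower still in cDC1. Intervals of Wdfy4-rich cells and cDC1 overlapped for Etfb and Rex1bd in both libraries, for Cd7 in WT and for Pcna in cit/cit. Ccl5, a chemokine gene, had log2 ratios of -1.31 and -1.31 in Wdfy4-rich cells and of 0.16 (-0.33 to 0.61) and 0.29 (-0.41 to 0.92) in cDC1, of which only 62 WT and 43 cit/cit cells lay under the limit.

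The genotypes were then compared within the cells under the limit. H2-Aa, which carries the citation allele, was read first. It encodes the MHC class II α chain and was at 2384 CPM in WT and 53.3 in cit/cit, a log2 ratio of -5.48 (-5.67 to -5.30), and above the limit it was at 8722 and 100.4, a log2 ratio of -6.44 (-6.50 to -6.38). Of 3997 genes with 50 or more CPM in a genotype, 88 (2.2%) were at least 1.5-fold higher in cit/cit and 66 (1.65%) at least 1.5-fold lower, and the median log2 ratio was 0.02. Above the limit, of 4252 genes, 99 (2.33%) were higher and 42 (0.988%) lower. These counts describe 1 library against another and have no replicate check.

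ER chaperones and folding enzymes, which fold and quality-control secretory proteins, were higher in cit/cit. Of all 24 listed genes, read with no minimum level, 24 had a log2 ratio above 0 in the cells under the limit and 23 were past 1.5-fold, the exception being Dnajb9 (0.40). Their median log2 ratio was 1.08. The 50 CPM minimum kept 19 of them, and 8 of these 19 met it in cit/cit alone, the group where they were high, so the count of 19 past 1.5-fold is partly fixed by the minimum. Of the 11 that met it in WT, a reading added after seeing the data, all 11 were past 1.5-fold, with a median of 0.98. With no minimum many more of all genes were past 1.5-fold, as given in the last section. The count of 23 of 24 is therefore not to be read against the 2.2% of all genes at 50 CPM. Sdf2l1, a co-factor of the ER chaperone BiP, was at 21.3 CPM in WT and 82.4 in cit/cit, a log2 ratio of 1.95 (1.64 to 2.28). Hspa5, which encodes BiP, was at 152 and 485, a ratio of 1.67 (1.55 to 1.79). Manf (1.94), Pdia4 (1.85), Hyou1 (1.79), Pdia6 (1.72), Hsp90b1 (1.67) and P4hb (1.46) completed the ER genes among the 10 highest. Of the 8 ER genes there, Hspa5 and Hsp90b1 met the minimum in WT, and the other 6 met it in cit/cit alone. The other 2 of the 10 were the neutrophil genes S100a8 (29.9 and 102 CPM, 1.77) and S100a9 (37.3 and 114 CPM, 1.61), and in each library 1 cell held most of the neutrophil UMIs, as given above. With a minimum of 2 Wdfy4 UMIs both ratios turned negative, to -0.50 and -0.76. Of 11 genes that the study named from these samples and that were read here, 9 were higher and 1 lower, with a median of 0.98, and that list is not independent evidence either. Of the 8 that met the minimum in WT 6 were higher and 1 lower, and the other 3 met it in cit/cit alone.

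**Figure D5:**
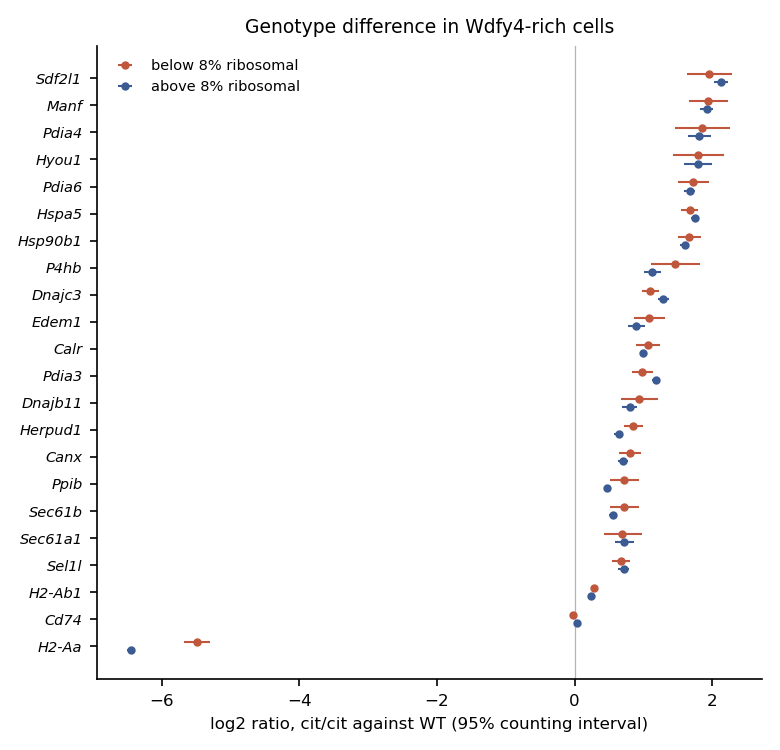
Log2 ratio of cit/cit to WT (x axis) for ER genes and 3 MHC class II genes, in Wdfy4-rich cells below and above 8% ribosomal share, with 95% counting intervals as bars. The ER genes lie above 0 on both sides of the limit, H2-Ab1 and Cd74 near 0, and H2-Aa at -5.48 below and -6.44 above it.

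The remaining lists were read against the 2.2% of all tested genes that were 1.5-fold higher and the 1.65% that were 1.5-fold lower. Among 9 MHC class II genes only H2-Aa was past 1.5-fold in the cells under the limit, and H2-Ab1, the β chain partner of H2-Aa, was at 2012 CPM in WT and 2449 in cit/cit. Of 13 MHC class I pathway genes 2, H2-Q7 (0.63) and H2-Q6 (0.90), were past 1.5-fold and higher, with a list median of 0.27. These are members of a multigene family whose reads the counting could split, so they are uncertain. Of the 12 class I pathway genes that met the minimum in WT 1 was higher, and the remaining gene met it in cit/cit alone. Of 10 interferon-stimulated genes 4 were higher, with a median of 0.48, led by Ifi207 (1.35) and the antiviral gene Oasl2 (1.15), but 3 of the 10 met the minimum in cit/cit alone, and of the 7 that met it in WT 1 was higher. With no minimum level 14 of 23 were higher, with a median of 0.74. That count is not to be read against the 2.2%, since many more of all genes passed 1.5-fold with no minimum. Of 18 immediate-early genes 5 were lower, with a median of -0.21, and 3 of the 18 met the minimum in WT alone. Egr1, a transcription factor of this list, was at 155 CPM in WT and 40.6 in cit/cit, a log2 ratio of -1.93 (-2.17 to -1.69), against -1.50 above the limit. Of 9 cDC2 identity genes 2, Cd209a (0.81) and the integrin gene Itgam (0.61), were higher, with a median of 0.24, although the share of cells with a Cd209a UMI was at background as given above. Above the limit none was past 1.5-fold. Under it Cd209a met the minimum in cit/cit alone, and of the 8 cDC2 identity genes that met it in WT 1 was higher. Of 12 mitochondrial mRNAs none was past 1.5-fold and the median was 0.31, against 0.02 above the limit.

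Of 20 genes listed by the study as leading its cluster, 1 was lower, Frmd5 (-0.84). Of 6 ESAM-high genes 1 was higher, Nrp1 (0.80), and of 2 CLEC12A-high genes 1, again Cd209a, whose share of cells was at background. Cd209a met the minimum in cit/cit alone, and the 1 CLEC12A-high gene that met it in WT was not past 1.5-fold. None of the 10 pan-DC genes, 7 nuclear noncoding RNAs, 24 cytosolic mRNAs, 23 oxidative phosphorylation genes and 3 apoptosis and stress genes read was past 1.5-fold, with medians of 0.02, 0.16, 0.18, 0.29 and 0.05, and of 19 membrane and secreted protein mRNAs 1 was higher, Ifitm3 (0.83). The 1 cytoplasmic noncoding RNA read was not past 1.5-fold (median 0.45), and neither were the single genes read from the proliferation (0.12), macrophage (0.08) and plasma cell (-0.02) lists. The mature list had 1 of 4 lower, Il4i1 (-0.98), the cDC1 list 1 of 2, Cadm1 (-1.36), and the plasmacytoid list 1 of 3, Ccr9 (-1.01). In each of these lists 1 gene met the minimum in WT alone, which in the cDC1 list was Cadm1, so these counts are partly fixed by the minimum. Wdfy4 (-0.09), Gm15261 (-0.11) and Sirpa (-0.24) were within 1.5-fold.

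The lowest genes beside H2-Aa and Egr1 included Ryr3, a calcium release channel of the ER, at 221 CPM in WT and 67.5 in cit/cit, a log2 ratio of -1.71 (-1.90 to -1.52), against -1.90 above the limit. Dpp10 was at 392 and 145 (-1.43) and Gm15155 at 68.1 and 14.9 (-2.19). Anxa3 (-1.63), H2-M2 (-1.61), Cadm1 (-1.36) and Tmod2 (-1.26) followed. Gm47283, at 455 and 199 CPM (-1.20), is placed on chromosome Y by the annotation although all mice were labelled female, and its reads were not traced further. Of the 88 higher genes 75 were read above the limit too, and 74 of these had the same sign and 49 were past 1.5-fold. Of the 66 lower genes 43 were read above it, all 43 with the same sign and 31 past 1.5-fold. Whether the cells are a separate subtype of cDC2 was not tested.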

How the data were processed

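Single-cell RNA-seq of sorted CD11c+ splenic cells was available for 1 library of each genotype. The authors deposited raw UMI counts per gene and cell, made with Cell Ranger 5.0.1 on mm10, for called cells only. The annotation release and the use of strand or intronic reads are not given in the sources used here. The members and lists were chosen with earlier results of these data known.

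From the counts, cells were put into 6 gates in the order plasmacytoid, cycling, mature, cDC1, Wdfy4-rich and other. UMIs were summed per gate and library and scaled to 1000000 UMIs outside ribosomal protein genes. Genes with 50 or more CPM on a side were compared, with exact binomial intervals for ratios, Clopper-Pearson intervals for shares, Newcombe intervals for differences of shares and exact Poisson intervals for levels, all at 95%. Cells were thinned to 1500 UMIs for shares with a UMI. Named genes were the 12 highest and 12 lowest in both libraries across the ribosomal limit, the 10 highest and 10 lowest between genotypes, the markers and members of 29 lists holding 411 genes. The lists covered DC classes, other blood cell types, RNA location, respiration, antigen presentation, ER folding, interferon, immediate-early, stress and study-named genes. Gene spans came from GENCODE M21, which matched 32235 of 32285 genes. The code was tested on simulated data. Python 3.11.15, numpy 2.4.6, scipy 1.17.1 and pandas 2.3.3 were used. Alternatives covered the limits, scaling, gene filter and cells left out. No doublet caller and no replicate test was run. The value of 1 list gene is not reported here.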

Additional observations from a re-analysis of the deposited data

Results flagged for a closer look

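S100a8 drew attention because its genotype ratio differed in sign across the ribosomal limit. Under the limit the log2 ratio of cit/cit to WT was 1.77 (1.50 to 2.05), from 145 UMIs in WT and 460 in cit/cit, and above it -1.01 (-1.41 to -0.61), from 103 and 111 UMIs. The difference was not tested. In the WT cells under the limit 1 of 1546 cells held an S100a8 UMI, and in cit/cit 42 of 1821 cells did. Above the limit 5 of 1666 and 104 of 4211 cells did. Over the 9 neutrophil genes, 1 WT cell under the limit held 326 of 354 UMIs and 1 cit/cit cell 1095 of 1236. Above the limit 1 WT cell held 161 of 196, and no cit/cit cell held more than 3 of 338. The ratios on both sides thus rest largely on 1 cell in a library.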

How the results depend on the processing

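With 1 library per genotype no value has a replicate check. No paired analysis was possible because each genotype had 1 library. Depth limits shares of cells with a UMI. Of 156 values of the main results under other settings 114 stayed, 42 moved and 0 changed sign, and of 42 added after seeing the data 38 stayed and 4 moved. Staying meant lying within the interval of the main value, within 1.5-fold for counts of genes or within a fixed margin for rho. Counts of genes and shares under the limit cannot change sign. Of 237 values of single genes under the planned settings 177 stayed, 55 moved and 5 changed sign. The cause was not tested.

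The share of Wdfy4-rich cells under the limit was 45.5% in WT and 25.8% in cit/cit with a limit of 6%, 51.4% and 32.6% with 10%, 51.7% and 33.4% with the Wdfy4 limit on thinned cells, and 55.2% and 36.7% without cells holding 2 UMIs of another cell type (50.6% and 32.7% with Adgre1 not counted, added after seeing the data). In cit/cit it was 28.6% with at least 5 Wdfy4 UMIs and 28.1% without cells under 1500 UMIs. The difference in the share of all cells was -5.20 points with a limit of 6%, -5.17 with 5 Wdfy4 UMIs, -5.41 without cells under 1500 UMIs and -5.71 in the added setting.

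The median of cytosolic mRNAs was -2.34 in WT and -2.29 in cit/cit with a limit of 6%, -2.03 and -2.01 with 10%, -2.02 and -1.91 scaled by all UMIs and -2.59 and -2.51 by the median of gene ratios. In WT it was -2.39 without cells of another type and -2.28 in the added setting. That of nuclear noncoding RNAs was 1.01 and 1.08 scaled by all UMIs and 0.447 and 0.487 by gene ratios, and in cit/cit 0.93 without cells of another type and 0.69 with a minimum of 10 CPM. Sirpa became -0.0047 and -0.035 and Malat1 in WT -0.084 by gene ratios.

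Genes 2-fold higher numbered 353 scaled by all UMIs, 54 by gene ratios, 370 at 10 CPM and 1412 at 1 UMI. Those 2-fold lower numbered 1425 at 10 CPM and 1791 at 1 UMI. Between genotypes 399 were higher and 282 lower at 10 CPM, and 1804 and 1928 at 1 UMI. The rho of span was 0.698 and 0.682 at 10 CPM and 0.374 and 0.328 at 1 UMI. With 2 Wdfy4 UMIs as the minimum, S100a8 was at -0.50 and S100a9 at -0.76 between genotypes.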
